A study of Mus musculus with 12 samples.

Results

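The liver's sinusoids and the adhesion molecules of its vessels were followed through 10 genes in the RNA of whole mouse livers after sham surgery, cecal ligation and puncture (CLP), or CLP followed by dichloroacetate (CLP+DCA). The genes were chosen by name, with earlier results of these data known. They comprise the inducible adhesion molecules Icam1 and Vcam1, the selectins Sele and Selp, and the junction molecule Pecam1. Stab1, Stab2, Lyve1, Clec4g and Fcgr2b, which sinusoidal endothelium carries, complete the set. The set holds 10 of the 25611 genes counted. All mice were males of the strain C57BL6J, 8 to 10 weeks old, with 4 per group, and no altered allele is named for any group. In CLP the cecum was tied off and punctured, so that gut bacteria reach the peritoneum, whereas sham mice had the incision alone. CLP+DCA mice had the same puncture and received DCA, an inhibitor of the pyruvate dehydrogenase kinases, at 25 mg/kg into the peritoneum at 24 hr. What sham and CLP mice were injected with at that time is not given in the sources used here. Livers were taken at 30 hr post-surgery, 6 hr after the injection.

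Sinusoidal endothelial cells line the low-pressure capillaries of the liver. They have open pores, no continuous basement membrane and a large capacity to take up waste from blood, for which they carry scavenger receptors, lectins and Fc receptors. Leukocytes leave the blood by binding vessel-wall molecules in sequence. Selectins slow the cells, ICAM-1 and VCAM-1 hold them through integrins, and PECAM-1 at the junctions serves their passage. In many vessels Icam1, Vcam1 and Sele are switched on by TNF, interleukin-1 or endotoxin through NF-kappaB, and in liver sinusoids selectins are known to play a small part.

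Between 24436513 and 44266819 reads per library were counted. CPM are a gene's reads relative to the reads of its library, with library sizes scaled by the TMM method. In 11 libraries the mean correlation of log2 CPM with the other libraries of the group was 0.965 to 0.990. It was 0.926 in CLP+DCA replicate 3, which correlated more closely with the CLP libraries (0.959). The other CLP+DCA libraries correlated more closely with sham (0.982 to 0.988) than with CLP (0.961 to 0.965). Therefore counts of calls, and fold changes that moved with CLP+DCA replicate 3, are also given without it. That library was singled out by these correlations and is the only CLP+DCA library closer to CLP than to sham. In CLP+DCA versus CLP, leaving it out thus favours a difference. Such fits give no independent support there.

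Levels were compared between genes only per length, as CPM per kb of annotated exon. In sham livers Clec4g, a lectin of sinusoidal endothelium, stood first at 13.1 ± 2.65 CPM per kb (SD, n = 4). Icam1 (3.68), Fcgr2b (2.93), Stab2 (2.86) and Stab1 (2.72) followed with overlapping ranges between neighbours, then Lyve1 (1.45) and Pecam1 (1.31), also overlapping. Vcam1 (0.730) and Selp (0.417) lay lower, and Sele, the endothelial selectin, was nearly without reads (0.006). In this order the ranges of neighbours were apart only between Clec4g and Icam1, between Pecam1 and Vcam1, and between Selp and Sele. The defining sinusoidal genes were thus all detected in the tissue. In CLP livers Icam1 (10.3 CPM per kb) and Lyve1 (7.14) took the second and the third place behind Clec4g (12.9), and the ranges of Clec4g and Icam1 as well as those of Icam1 and Lyve1 overlapped.

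**Figure D1:**
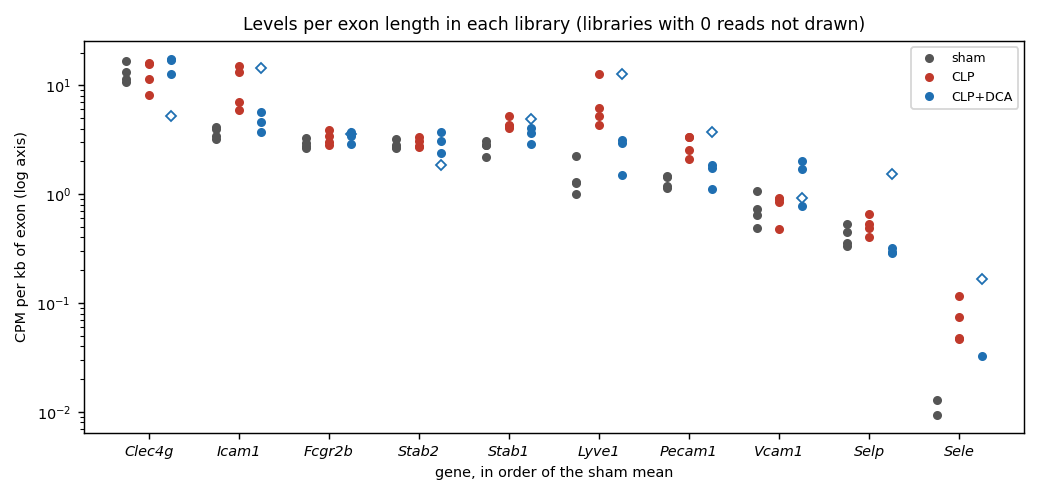
Levels of the 10 genes in each of the 12 libraries, in CPM per kb of exon on a log axis, with genes in the order of their sham means and the groups side by side. Each dot is 1 library and the open diamond is CLP+DCA replicate 3; Clec4g is highest and Sele lowest in every group by mean, and libraries without a Sele read are not drawn.

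To ask which of these genes differed at 30 hr of sepsis, CLP was compared with sham. Stab1, Lyve1, Pecam1 and Icam1 were higher in CLP, with every CLP library above every sham library, whereas Stab2, Clec4g, Fcgr2b, Vcam1 and Selp overlapped. Of the 9 genes with enough reads for the test, 1 (Stab1) passed an FDR of 0.05 in edgeR's quasi-likelihood test, against 2.78% of the 13190 genes tested. Groups that did not overlap, with CLP higher, were found for 4 of the 9 genes and for 12.2% of all genes. Without CLP+DCA replicate 3, a library of neither group that enters the shared estimate of spread, Stab1, Lyve1, Pecam1 and Icam1 passed, 4 of 9, against 23.8% of all genes. DESeq2 on the 8 libraries compared called those 4 and Sele, 5 of 10, against 23.3% of all genes. The median log2 fold change was 0.32 over the 9 genes and 0.02 over all genes tested. Since the genes were chosen with earlier results known, these shares and medians are a description. In whole tissue, fewer cells of a type and less RNA per cell cannot be told apart. This holds for all levels given here.

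**Figure D2:**
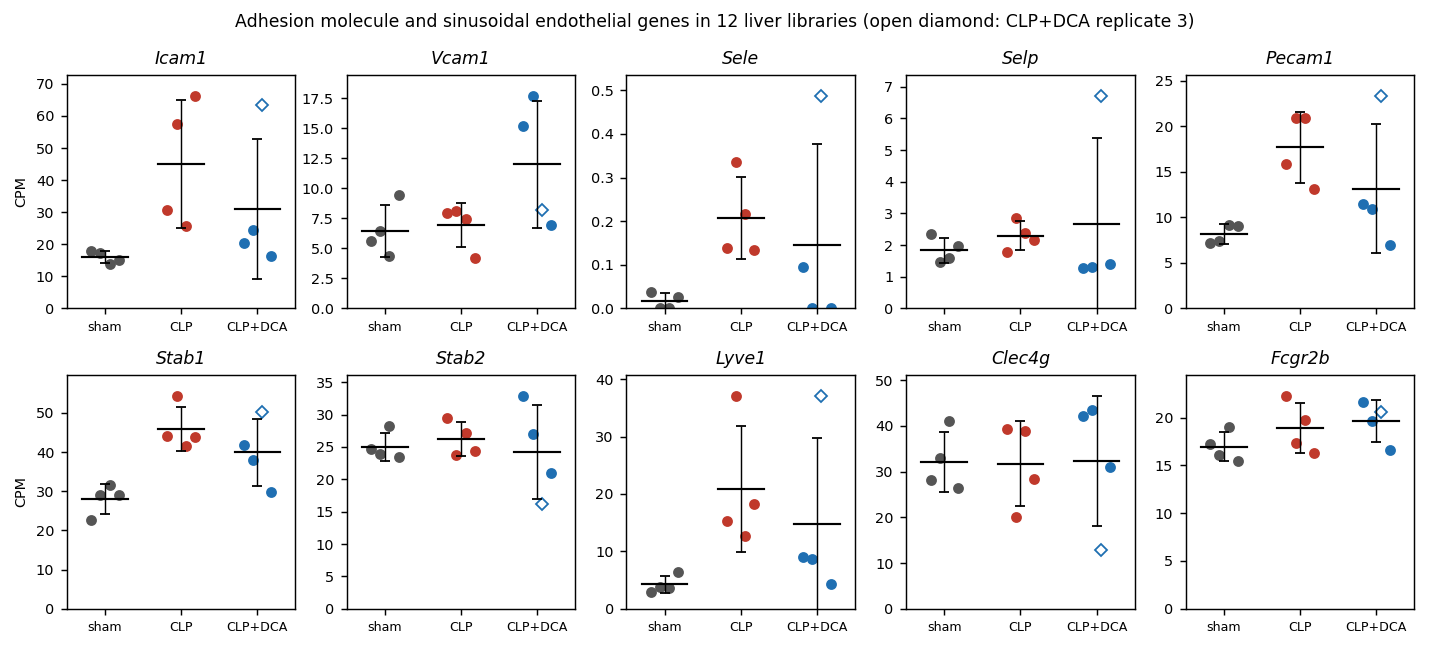
CPM of each of the 10 genes in the 12 libraries, 1 panel per gene on its own linear axis from 0; dots are libraries, bars the mean and SD of 4 mice, and the open diamond is CLP+DCA replicate 3. Icam1, Sele, Pecam1, Stab1 and Lyve1 show all 4 CLP libraries above all 4 sham libraries, and in CLP+DCA the diamond lies far above the other libraries for Icam1, Selp, Pecam1 and Lyve1 and below them for Stab2 and Clec4g.

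Icam1 encodes the ligand of the leukocyte integrins LFA-1 and Mac-1 (Gene 15894, mm10 chr9:21015940-21028814, plus strand). It measured 17.97, 17.3, 14.0 and 14.96 CPM in sham replicates 1 to 4. CLP replicates 1 to 4 held 30.6, 57.6, 25.8 and 66.3 CPM. The groups did not overlap, but the CLP livers fell into a lower and a higher pair, replicates 1 and 3 against 2 and 4. Replicates 2 and 4 also had fewer reads (24436513 and 25683615) than replicates 1 and 3 (44266819 and 39686029). Their TMM factors were lower too, at 0.855 and 0.867 against 0.981 and 1.048. Over all genes that passed the filter, their mean correlation with sham was 0.924 and 0.948, against 0.974 and 0.964 in replicates 1 and 3. The part of these differences in the Icam1 level was not tested. The log2 fold change was 1.49 ± 0.42 (SE), with an adjusted p of 0.0701 in edgeR, and an adjusted p of 0.0078 with the same fold change of 1.48 when CLP+DCA replicate 3 was left out. Summed CPM over 10 neutrophil markers, cells that also carry Icam1, was 6.24 to 8.97 in sham and 31.8 to 46.0 in CLP. All 10 markers were detected in CLP and 9 in sham, where Camp had 0 reads. Of the 9 tested, 1 passed upward in edgeR, and 8 passed upward without CLP+DCA replicate 3. Their part in the Icam1 level was not tested.

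Vcam1 encodes the ligand of the integrin VLA-4 (Gene 22329, chr3:116110020-116129688, minus strand). Sham replicates 1 to 4 held 5.65, 6.44, 4.37 and 9.44 CPM, and CLP replicates 1 to 4 held 7.93, 8.09, 7.45 and 4.22 CPM. The groups overlapped, and CLP replicate 4, which had the highest Icam1 of its group, had the lowest Vcam1. The log2 fold change was 0.10, with a 95% interval of -0.63 to 0.83, and its sign turned when libraries were scaled by size alone. Icam1 and Vcam1 are often read together as markers of activated endothelium and were compared within libraries. This and the other ratio pairs were chosen with earlier results of these data known. Each pair set a gene whose CLP and sham groups lay apart over a gene whose groups overlapped. In CLP versus sham the ratio tests therefore add no independent support. Within each library the log2 ratio of Icam1 to Vcam1 was 1.36 ± 0.48 in sham and 2.64 ± 1.001 in CLP (SD, n = 4), without overlap, a difference of 1.28 (two-sided exact permutation p = 0.0286, the smallest that 4 against 4 allow; 0.0643 adjusted over the 9 ratio tests run).

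The regulatory sequence ahead of 4 of these genes is shown to set the inducible Icam1 and Sele beside the paralogous scavenger receptors Stab1 and Stab2, of which Stab1 passed the test in CLP. RefSeq promoters of build GRCm38.p6 (the assembly of mm10) were at hand for 7 of the 10 genes, all but Vcam1, Pecam1 and Lyve1. Printed are the 250 bases before the RefSeq start, 5′ to 3′ on the strand of the gene: chr9:21015690-21015939 (plus) for Icam1, chr1:164047984-164048233 (plus) for Sele, chr14:31168642-31168891 (minus) for Stab1 and chr10:87007943-87008192 (minus) for Stab2. Capitals mark matches to the motifs searched.
Icam1: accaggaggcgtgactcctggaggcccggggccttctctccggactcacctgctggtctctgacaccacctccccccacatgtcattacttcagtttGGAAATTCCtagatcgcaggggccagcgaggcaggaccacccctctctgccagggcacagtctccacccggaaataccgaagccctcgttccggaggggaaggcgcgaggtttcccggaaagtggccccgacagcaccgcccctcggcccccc
Sele: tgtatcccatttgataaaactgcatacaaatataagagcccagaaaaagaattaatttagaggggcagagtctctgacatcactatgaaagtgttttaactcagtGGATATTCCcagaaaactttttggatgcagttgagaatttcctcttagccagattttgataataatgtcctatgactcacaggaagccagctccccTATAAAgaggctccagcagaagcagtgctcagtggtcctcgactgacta
Stab1: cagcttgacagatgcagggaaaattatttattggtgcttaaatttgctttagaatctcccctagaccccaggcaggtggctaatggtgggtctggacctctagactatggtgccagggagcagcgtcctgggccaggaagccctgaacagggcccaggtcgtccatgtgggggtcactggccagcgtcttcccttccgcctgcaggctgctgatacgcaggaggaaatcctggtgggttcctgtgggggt
Stab2: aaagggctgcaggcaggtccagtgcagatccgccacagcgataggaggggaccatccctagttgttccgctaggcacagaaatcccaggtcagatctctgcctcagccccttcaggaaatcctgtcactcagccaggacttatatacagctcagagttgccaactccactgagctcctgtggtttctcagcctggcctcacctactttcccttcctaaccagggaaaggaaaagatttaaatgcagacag

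The motifs searched on both strands were GGGNNTTNC and GGANNTTCC, which resemble NF-kappaB sites, TTTCNNTTT, which resembles an interferon response element, and TATAAA. In the window of 250 bases before and 50 after the start, Icam1 held GGAAATTCC with its first base 153 bases before the start, and Sele held GGATATTCC 145 bases before it. The GGANNTTCC motif is in 4.26% of all 32851 promoters. Icam1's match fits the motif on both strands. Sele also held TATAAA 49 bases before the start and Icam1 held it 13 bases after the start, where the printed stretch has ended. Clec4g held it on the opposite strand 31 bases before the start, and 13.6% of all promoters hold TATAAA. No motif was found in Selp, Stab1, Stab2 or Fcgr2b. GGGNNTTNC (15.2% of all promoters) and TTTCNNTTT (10.6%) were in none of the 7. These matches describe letters and were not tested as binding sites.

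Sele encodes E-selectin, which activated endothelium places on its surface (Gene 20339, chr1:164048234-164057677, plus strand). It did not pass the filter on low counts. Sham replicates 1 to 4 held 1, 0, 0 and 1 reads, and CLP replicates 1 to 4 held 6, 7, 9 and 3 reads. All CLP livers thus lay above all sham livers, at levels close to the limit of detection. Relative to TMM-scaled library sizes, the CLP libraries together held 13.2 times the sham level, with a 95% exact interval for counting error of 3.29 to 115. The log2 CPM difference of 1.76 gave a two-sided exact permutation p of 0.0286, again the smallest possible. When all genes were kept, edgeR gave a log2 fold change of 3.44 with an adjusted p of 0.140, and DESeq2 on 8 libraries gave 3.76 with an adjusted p of 0.0152.

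Selp encodes P-selectin, stored in endothelial and platelet granules (Gene 20344, chr1:164115264-164150026, plus strand). It measured 2.34, 1.46, 1.58 and 1.97 CPM in sham replicates 1 to 4 and 1.77, 2.87, 2.37 and 2.16 CPM in CLP replicates 1 to 4. The groups overlapped, and the log2 fold change was 0.32 with a 95% interval of -0.79 to 1.42 (edgeR adjusted p = 0.692). Summed CPM over 8 platelet markers was 3.61 to 4.76 in sham and 4.26 to 5.01 in CLP, and of the 4 markers tested none passed in edgeR, with 1 at an unadjusted p under 0.05, downward. Exons of Selp share 438 bases with the noncoding Gm16548 on the other strand, which was counted at 5.29 CPM in sham. Since the library kit does not mark strand, reads from shared stretches cannot be assigned. Both selectins were thus low in these livers, with sham and CLP apart for Sele and overlapping for Selp.

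Pecam1, the junction molecule of all endothelium, which platelets and leukocytes also carry (Gene 18613, chr11:106654213-106715281, minus strand), measured 7.14, 7.35, 9.18 and 9.03 CPM in sham. CLP replicates 1 to 4 held 15.8, 20.9, 20.9 and 13.1 CPM. All CLP libraries lay above the sham range. The log2 fold change was 1.11 ± 0.31 (SE; edgeR adjusted p = 0.0664, and 0.0041 without CLP+DCA replicate 3).

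Stab1 and Stab2 encode stabilin-1 and stabilin-2, paralogous scavenger receptors that clear modified lipoproteins, collagen fragments and, for stabilin-2, hyaluronan. Stab1 (Gene 192187, chr14:31139017-31168641, minus strand), also carried by some macrophages, measured 22.5, 29.0, 31.6 and 28.9 CPM in sham replicates 1 to 4. CLP replicates 1 to 4 held 43.99, 54.3, 41.6 and 43.9 CPM. Stab1 rose 1.64-fold, a log2 fold change of 0.71 ± 0.16 (SE), with an adjusted p of 0.0432 in edgeR and all CLP libraries above all sham libraries. The fold change stayed between 0.62 and 0.77 when each of the 12 libraries was left out in turn, whereas the adjusted p ran from 0.0060 to 0.125 and was under 0.05 in 3 of those 12 fits (without CLP replicate 3, CLP+DCA replicate 3 or CLP+DCA replicate 4). Its exons share 112 bases with those of Nt5dc2 on the other strand, which was counted at 3.36 CPM in sham and 4.18 CPM in CLP. Summed CPM over 9 Kupffer cell markers was 186 to 310.2 in sham and 292 to 371 in CLP. All 9 markers were tested and none passed in edgeR, with 1 at an unadjusted p under 0.05, upward; the part of these cells in the Stab1 level was not tested.

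Stab2 (Gene 192188, chr10:86841210-87007942, minus strand) measured 24.6, 23.9, 28.2 and 23.5 CPM in sham and 29.4, 23.7, 27.2 and 24.4 CPM in CLP. The ranges nearly coincided. The log2 fold change was 0.06 with a 95% interval of -0.33 to 0.46, which leaves out a change of the size of Stab1's fitted value, and its sign turned when libraries were scaled by size alone. The log2 ratio of Stab1 to Stab2 within each library was 0.15 ± 0.20 in sham and 0.81 ± 0.28 in CLP (SD, n = 4), without overlap. The difference was 0.65 (two-sided exact permutation p = 0.0286; 0.0643 adjusted over 9 tests). In sham the paralogs had overlapping levels per length, and in CLP their ranges per length did not overlap.

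Lyve1 encodes a hyaluronan receptor shared by lymphatic and sinusoidal endothelium and some macrophages (Gene 114332, chr7:110850607-110862953, minus strand). It measured 2.94, 3.79, 3.70 and 6.48 CPM in sham replicates 1 to 4. CLP replicates 1 to 4 held 15.4, 37.1, 12.7 and 18.2 CPM. Among the 9 genes tested it had the largest fold change, 4.89-fold, a log2 value of 2.29 ± 0.61 (SE), with an adjusted p of 0.0630 in edgeR and 0.0055 without CLP+DCA replicate 3. Against Stab2, the other hyaluronan receptor among the genes chosen, the log2 ratio was -2.63 ± 0.54 in sham and -0.45 ± 0.78 in CLP (SD, n = 4). The difference of 2.18 had a two-sided exact permutation p of 0.0286 (0.0643 adjusted over 9 tests), and the groups did not overlap.

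**Figure D3:**
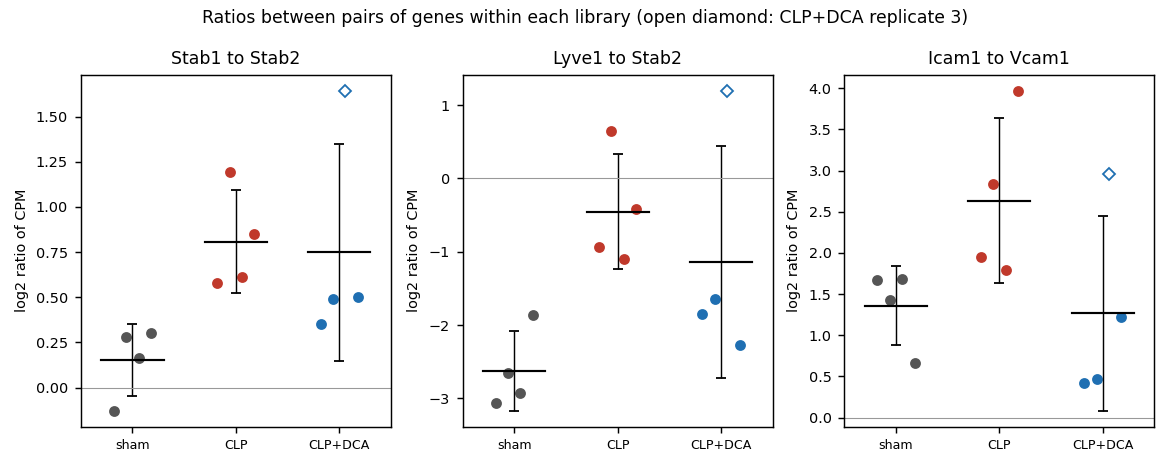
Log2 ratios of CPM between 3 pairs of genes within each library, by group; dots are libraries, bars the mean and SD of 4 mice, the grey line marks equal CPM, and the open diamond is CLP+DCA replicate 3. In each pair the 4 CLP libraries lie above the 4 sham libraries.

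Clec4g, the lectin LSECtin (Gene 75863, chr8:3716071-3720651, minus strand), measured 28.2, 32.9, 41.0 and 26.5 CPM in sham and 39.4, 20.1, 39.0 and 28.3 CPM in CLP. Levels in CLP thus spread on both sides of the sham mean, with a log2 fold change of -0.02 and a 95% interval of -0.75 to 0.72. Fcgr2b, the inhibitory Fc receptor that in liver is mainly sinusoidal and takes up immune complexes (Gene 14130, chr1:170960559-170976071, minus strand), measured 17.2, 16.1, 19.0 and 15.5 CPM in sham. CLP replicates 1 to 4 held 22.3, 17.3, 19.7 and 16.3 CPM. It had the narrowest interval of the 9 genes, a log2 fold change of 0.16 between -0.10 and 0.42, with overlapping groups (edgeR adjusted p = 0.371). Exons of Icam1, Vcam1, Stab2, Clec4g and Fcgr2b each share 61 to 511 bases with an annotated antisense gene that has no row in the table.

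To ask whether DCA moved these genes in septic mice, CLP+DCA was compared with CLP. None of the 9 genes tested passed in edgeR, against 0.00758% of all genes, and 1 (Vcam1) had an unadjusted p under 0.05, against 10% of all genes. None had groups apart in either direction, against 4.37% of all genes. DESeq2 on 8 libraries called 0, against 0.604% of genes. Without CLP+DCA replicate 3, 1 of 9 (Pecam1) passed, against 4.64%, and 6 (Icam1, Vcam1, Selp, Pecam1, Stab1 and Lyve1) had an unadjusted p under 0.05, against 28.2%. The median log2 fold change over the 9 genes was -0.11, beside 0.01 over all genes, and -0.33 without that library.

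In the DCA group the 4 genes that were higher in CLP were all highest in replicate 3. Icam1 measured 20.3, 24.5, 63.4 and 16.2 CPM in CLP+DCA replicates 1 to 4. Lyve1 held 9.10, 8.64, 37.0 and 4.36 CPM, and Pecam1 held 11.4, 10.9, 23.3 and 6.97 CPM. For these 3 genes, replicate 3 lay near the top of the CLP range or above it while the other libraries lay below every CLP library. Stab1, at 41.9, 37.9, 50.3 and 29.8 CPM, had the same order of libraries as Lyve1 and Pecam1 but overlapped CLP in replicate 1 as well. The log2 fold changes against CLP were -0.53 for Icam1, -0.49 for Lyve1, -0.42 for Pecam1 and -0.20 for Stab1. Without replicate 3 they were -1.14 (edgeR adjusted p = 0.0582), -1.49 (0.0630), -0.86 (0.0402) and -0.33 (0.157), and Pecam1 alone passed. Since the library left out was the one of its group closer to CLP than to sham, these values add no independent support for a difference. Summed CPM of the 10 neutrophil markers was 61.3 in CLP+DCA replicate 3, the highest of the group, whose lowest was 6.29. This was not particular to neutrophils. Of the lists given below, the sums for adhesion (320), counter-receptor (271), sinusoidal (301), endothelial (232) and NF-kappaB genes (1806) were also highest there. So were those for proteases (361), platelets (9.05) and stellate cells and cholangiocytes (236). Sums for Fc receptors (117), hepatocytes (27635) and lymphocytes (0.812) were the lowest of the group there, and that for Kupffer cells (242) was neither. The sinusoidal sum was close to its group median of 289. In CLP+DCA, Cd36 of that list reached 99.1 CPM, against a group mean of 51.5. Of the NF-kappaB list, Cd14 reached 822 CPM and Il1r1 466 CPM. A sum can thus rest on a few genes and does not show that a list rose as a whole. The part of the marked cell types in the levels above was not tested.

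Vcam1 went another way. CLP+DCA replicates 1 to 4 held 15.2, 17.7, 8.18 and 6.94 CPM, against 4.22 to 8.09 CPM in CLP. The first pair lay above every CLP and sham library, the second did not, and the groups overlapped. The log2 fold change was 0.79 with a 95% interval of 0.06 to 1.52 (edgeR unadjusted p = 0.0366, adjusted p = 0.467), and 0.93 without replicate 3 (adjusted p = 0.110). The log2 ratio of Icam1 to Vcam1 was 1.27 ± 1.18 in CLP+DCA (SD, n = 4) and differed from that in CLP by -1.37 (two-sided exact permutation p = 0.143; 0.214 adjusted over 9 tests) and by -1.93 without replicate 3.

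Both selectins were highest in replicate 3 of CLP+DCA. Sele had 3, 0, 18 and 0 reads in replicates 1 to 4, so that 18 of the group's 21 reads came from replicate 3. Selp measured 1.28, 1.31, 6.72 and 1.40 CPM. The mean of Selp was 2.68 ± 2.69 CPM (SD, n = 4) and 1.33 ± 0.063 CPM without replicate 3 (n = 3), below the 4 CLP libraries. Its log2 fold change against CLP turned from 0.24 to -0.78 (edgeR adjusted p = 0.0625) when that library was left out. In the same library the summed CPM of the 8 platelet markers was 9.05, against a median of 4.07 in the group. In CLP+DCA, Itga2b reached 5.09 CPM and Pf4 3.17 CPM, against at most 0.575 for Ppbp and 0.541 for Gp1ba. The sum thus rested mainly on Itga2b and Pf4. The part of platelets in the Selp level was not tested.

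Of the other sinusoidal receptors, Stab2 and Clec4g were lowest in replicate 3. Stab2 measured 32.9, 26.9, 16.1 and 21.0 CPM and Clec4g measured 42.1, 43.4, 12.8 and 31.1 CPM, and replicate 3 was below the other 11 libraries in both. Fcgr2b held 21.7, 19.7, 20.6 and 16.6 CPM, where replicate 3 did not stand apart. The log2 fold changes against CLP were -0.11 for Stab2 (95% interval -0.51 to 0.28), 0.02 for Clec4g (-0.71 to 0.76) and 0.05 for Fcgr2b (-0.21 to 0.31). The signs for Stab2 turned without replicate 3 and when libraries were scaled by size alone, and those for Clec4g and Fcgr2b turned when another single library was left out.

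**Figure D4:**
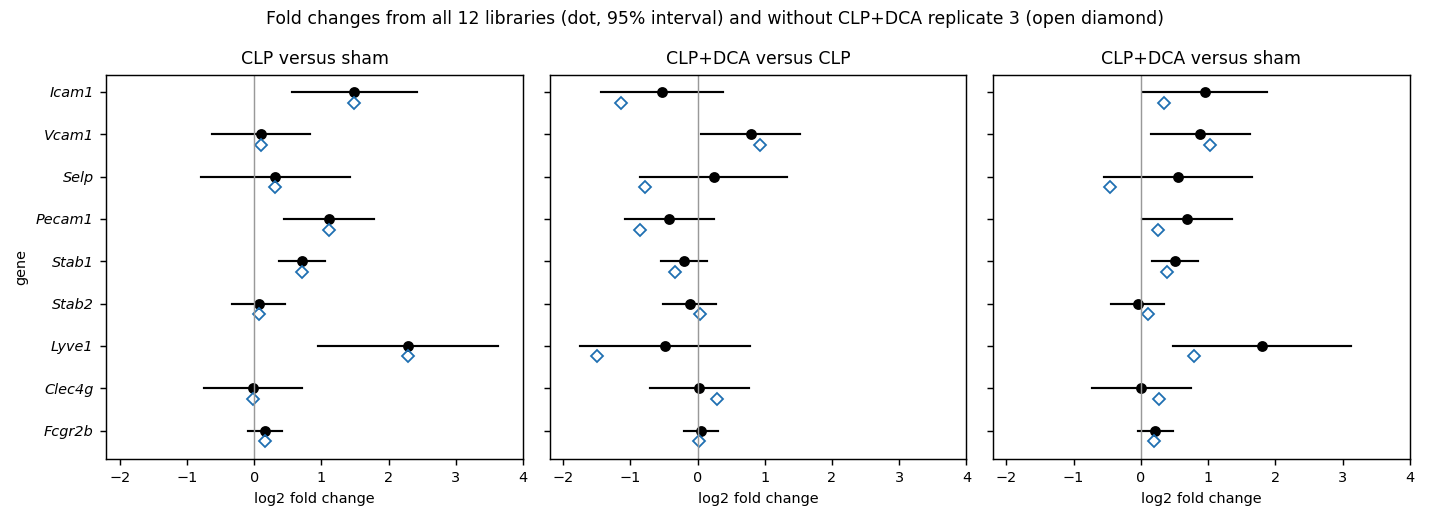
Log2 fold changes of the 9 tested genes in the 3 comparisons; black dots and lines give the edgeR estimate from 12 libraries with its 95% interval, and open diamonds the estimate without CLP+DCA replicate 3. In CLP versus sham the dots and diamonds coincide, whereas in both comparisons of CLP+DCA the diamonds of Icam1, Selp, Pecam1 and Lyve1 lie to the left of the dots.

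Finally, CLP+DCA was compared with sham, which shares its libraries with both comparisons above. None of the 9 genes passed in edgeR, against 0.0379% of all genes, while 5 (Icam1, Vcam1, Pecam1, Stab1 and Lyve1) had an unadjusted p under 0.05, all upward, against 13.0% of all genes in either direction. None had groups apart, against 9.76%. DESeq2 on 8 libraries called 0, against 1.2% of genes, and edgeR without CLP+DCA replicate 3 called 0, against 0.0828%, with 2 (Vcam1 and Stab1) at an unadjusted p under 0.05, against 9.38%. Pecam1 had a log2 fold change of 0.69 (edgeR adjusted p = 0.377), and of 0.26 without replicate 3. Lyve1 was higher by 1.80 ± 0.61 (log2, SE; edgeR adjusted p = 0.296), and by 0.79 without replicate 3. Icam1 was higher by 0.96 (adjusted p = 0.377) and by 0.34 without replicate 3, whereas the values of Vcam1 were 0.89 (adjusted p = 0.319) and 1.03. Stab1 was 0.51 ± 0.16 (adjusted p = 0.279) and 0.38 without replicate 3. The log2 ratio of Stab1 to Stab2 lay above that of sham in every CLP+DCA library. The difference was 0.59 (two-sided exact permutation p = 0.0286, or 0.0643 adjusted over 9 tests) and 0.30 without replicate 3. Replicate 3 had a log2 ratio of 1.64, against 0.35 to 0.50 in the other CLP+DCA libraries. The pair was chosen with earlier results known and the sham libraries are those compared with CLP, so this test adds no independent support.

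The genes whose log2 CPM followed each of these most closely over the 12 libraries are given as a description. The libraries share their group and depth, and CLP+DCA replicate 3 weighs on several values. Icam1 ran closest to Cp (r = 0.986), the plasma copper carrier ceruloplasmin, and to Tlr2 (r = 0.982), a receptor of bacterial lipoproteins. Lyve1 ran closest to Cfap69 (r = 0.981) and to Ngp (r = 0.974), a neutrophil granule gene, Stab1 also to Cfap69 (r = 0.949) and Pecam1 to Anxa2 (r = 0.970). Without CLP+DCA replicate 3 these values were 0.983, 0.977, 0.975, 0.967, 0.956 and 0.963 in the same order. Selp and Slc7a1 had an r of 0.944, or 0.848 without that library. Clec4g and Tmem37 had 0.949, or 0.879 without it, and Stab2 and Ankdd1b 0.913, or 0.795. Fcgr2b and Xlr had 0.914, or 0.912. Vcam1 had no partner as close, with Lpin1 nearest (r = 0.867, or 0.890). Among the genes themselves, Stab1 and Lyve1 had an r of 0.94 with and without it, and Stab2 and Clec4g one of 0.87, or 0.70. Stab1 and Stab2 had -0.06, or 0.35 without that library, and Icam1 and Vcam1 had -0.08, or -0.11.

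Related genes were then counted in CLP versus sham. The background is again 2.78% of all genes called (23.8% without CLP+DCA replicate 3) and 28.6% with an unadjusted p under 0.05. These shares count genes in either direction, and the median log2 fold change of all genes is 0.02. Of 13 other adhesion and junction molecules of endothelium, 12 were tested and 1 rose: Jam2, a junction molecule, from 6.54 ± 0.339 to 19.9 ± 3.15 CPM (SD, n = 4; log2 1.601, edgeR adjusted p = 0.0443). The median over the 12 was 0.48, and Cdh5, the endothelial cadherin, measured 12.02 and 16.7 CPM (adjusted p = 0.135). Of the 12, 3 passed upward without CLP+DCA replicate 3. Of the 12 leukocyte counter-receptors, 2 rose. Itga4, a subunit of the Vcam1 receptor, went from 5.80 ± 0.926 to 28.8 ± 14.9 CPM (adjusted p = 0.0406 in edgeR). Itgam, a subunit of the Icam1 receptor Mac-1, went from 1.02 ± 0.432 to 10.9 ± 2.82 CPM (adjusted p = 0.0482 in edgeR). The median over these 12 was 0.24, and 4 passed upward without CLP+DCA replicate 3.

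Of 20 other genes of sinusoidal endothelium, 19 were tested and none passed in edgeR, with a median of 0.30. An unadjusted p under 0.05 was found for 6 of them, a share near the 28.6% of all genes. The 6 were all upward, whereas the 28.6% counts genes in either direction. Clec1b, the podoplanin receptor, had a log2 fold change of 0.55 (edgeR adjusted p = 0.0815) and Ptgs1, a cyclooxygenase, one of 0.55 (adjusted p = 0.0938). Of 20 endothelial genes of all vessels, none passed, and the median was 0.44. Of these, 10 had an unadjusted p under 0.05, all upward, against 28.6% of all genes in either direction. Vwf, the von Willebrand factor, had 1.501 (edgeR adjusted p = 0.0622) and Clec14a 0.49 (adjusted p = 0.0652). Summed CPM over this list was 130 to 173 in sham and 168 to 242 in CLP, which overlapped. Without CLP+DCA replicate 3, 4 of the 19 and 9 of the 20 passed, all upward, against 23.8% of all genes in either direction. The 8 hepatocyte markers had a sum of 62133 to 80155 CPM in sham and of 29393 to 44916 CPM in CLP, without overlap. The sum rested mainly on Alb, which averaged 46672 CPM in sham and 21571 CPM in CLP. Of the 8 markers, 7 were lower in CLP and 1 higher, with a median of -0.41. Alb alone passed downward (log2 -1.11, edgeR adjusted p = 0.0463), or 2 markers without CLP+DCA replicate 3. Ttr had -0.60 (edgeR adjusted p = 0.0815), whereas Apoa1 had -0.21, Serpina1a -0.19 and Hnf4a 0.05. The share of the hepatocyte markers in the endothelial values, which are relative to TMM-scaled library sizes, was not tested.

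**Figure D5:**
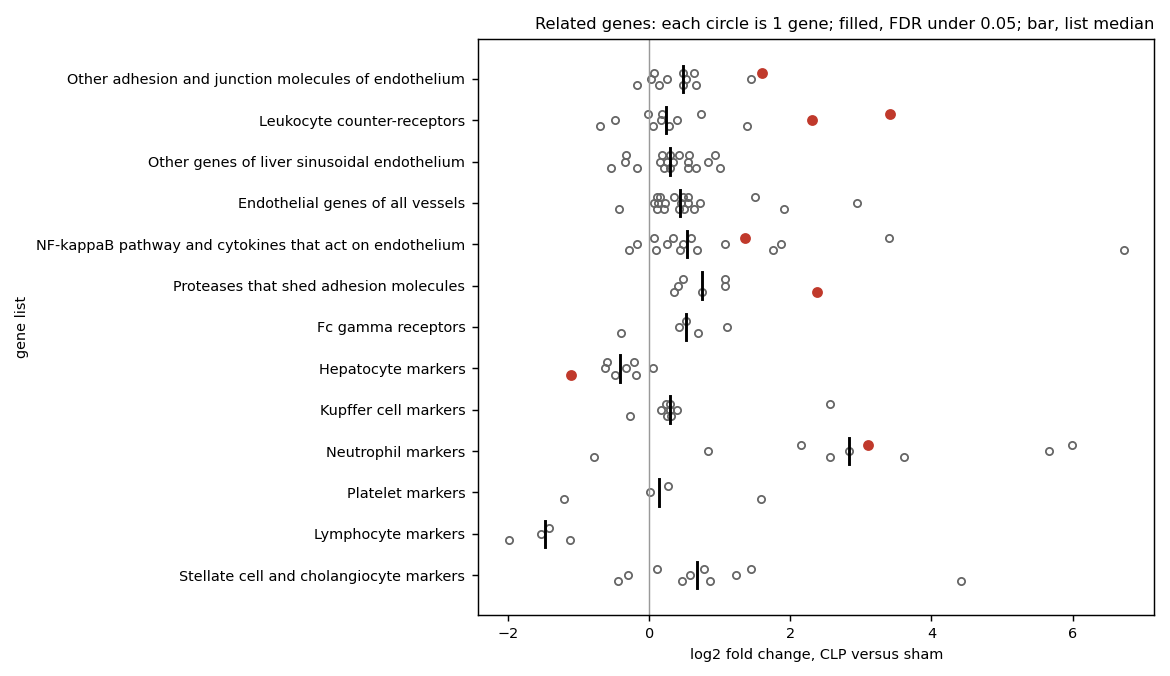
Log2 fold changes in CLP versus sham of the genes tested in 13 lists of related genes and cell type markers; each circle is 1 gene, filled where the edgeR FDR was under 0.05, and the black bar is the list median. Filled circles are found in the lists of adhesion molecules, counter-receptors, NF-kappaB and cytokines, proteases and neutrophils on the right and in that of hepatocytes on the left.

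Of 19 genes of the NF-kappaB pathway and the cytokines that act on endothelium, 16 were tested and 1 rose: Il1b, from 1.23 ± 0.305 to 3.20 ± 0.889 CPM (SD, n = 4; edgeR adjusted p = 0.0463). Il1r1, its receptor, had a log2 fold change of 1.75 (edgeR adjusted p = 0.0510), and the list's median was 0.54. Of the 16, 8 passed upward without CLP+DCA replicate 3. Of 7 proteases that shed adhesion molecules, Mmp9 rose from 0.495 ± 0.18 to 2.54 ± 0.802 CPM (edgeR adjusted p = 0.0461). Mmp14 had 0.74 (adjusted p = 0.0782), and the median of the 7 was also 0.74; 6 of the 7 passed upward without CLP+DCA replicate 3. Of the 5 other Fc gamma receptors and their partners, none passed in edgeR and 4 had an unadjusted p under 0.05, 3 of them upward, and 1 passed upward without CLP+DCA replicate 3. Fcgr4 had 1.099 (adjusted p = 0.107) and Fcer1g, the shared signalling chain, 0.70 (adjusted p = 0.126), beside the 0.16 of Fcgr2b.

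Markers of other cells moved in both directions. Among 9 neutrophil markers tested, Retnlg rose (log2 3.10, edgeR adjusted p = 0.0254), Mmp8 had 3.61 (adjusted p = 0.0560) and the median was 2.84. Ly6g was the one lower in CLP (-0.78, edgeR adjusted p = 0.136), and 8 of the 9 passed upward without CLP+DCA replicate 3. Of the 9 Kupffer cell markers, Marco, a scavenger receptor, had 2.56 (edgeR adjusted p = 0.0554) and C1qb 0.30 (adjusted p = 0.422), with a median of 0.29 and 1 called upward without CLP+DCA replicate 3. Of 8 platelet markers, 4 were tested, with a median of 0.13; Gp1ba had -1.20 (edgeR adjusted p = 0.0771) and Pf4 1.58 (adjusted p = 0.199), and without CLP+DCA replicate 3 1 passed in each direction. Of 9 lymphocyte markers, 4 were tested and none passed in edgeR, with all 4 downward at an unadjusted p under 0.05 and a median of -1.48. Cd4 had -1.13 (edgeR adjusted p = 0.118). With CLP+DCA replicate 3 left out, 5 were tested and 3 passed downward. Of 10 stellate cell and cholangiocyte markers, none passed in edgeR, and the median was 0.68. An unadjusted p under 0.05 was found for 6, all upward, against 28.6% of all genes in either direction. Of the 10, 6 passed upward without CLP+DCA replicate 3. Krt19 had 1.44 (edgeR adjusted p = 0.0544) and Des 4.42 (adjusted p = 0.0710), a value carried by CLP replicate 3 at 172 CPM, against 3.32 to 3.93 CPM in the other CLP livers and 1.71 to 2.54 CPM in sham. In CLP+DCA versus CLP and in CLP+DCA versus sham no gene of the 13 lists passed in edgeR. With CLP+DCA replicate 3 left out, none passed against sham. Against CLP, 6 neutrophil markers, 3 endothelial genes of all vessels, 2 counter-receptors and 1 gene each of the adhesion, sinusoidal and protease lists then passed downward, beside 2 downward and 1 upward of the NF-kappaB list and 1 lymphocyte marker upward, against 4.64% of all genes. The medians for the endothelial genes of all vessels were -0.32 against CLP and 0.14 against sham, or -0.37 and 0.0085 without that library. Those for the other sinusoidal genes were -0.14 and 0.14, or -0.093 and 0.0998.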

How the data were processed

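Whole-liver RNA of 12 mice was sequenced from TruSeq RNA v2 libraries, a kit that does not mark strand. The authors used STAR 2.5 for alignment to mm10, featureCounts (Subread 1.5.0-p1) for counting and DESeq2 for testing; these versions come from the submitters' processing notes. The counting annotation and strand setting are not given in the sources used here. The values deposited are raw counts of reads for 25611 genes, 6769 of them without any read, and every column was mapped to a mouse by its label.

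Counts were filtered with filterByExpr (minimum count 10; 13190 genes, Sele not among them), normalized by TMM and fitted in 1 robust quasi-likelihood model over all 12 libraries (edgeR 4.0.16, R 4.3.3), with Benjamini-Hochberg adjustment over all genes tested and a threshold of 0.05. CPM use TMM-scaled library sizes, and log2 CPM a prior count of 2. The SE is the size of the log2 fold change divided by the square root of F. CPM per kb used GENCODE vM21 exon unions of the same build. Ratios within libraries and Sele were tested by two-sided exact permutation (scipy 1.17.1), in which 4 against 4 cannot give less than 0.0286. Leaving out replicate 3 of CLP+DCA leaves 3 mice there. The fits were tested on simulated data.

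The members, the lists and the pairs of genes compared as ratios were chosen with earlier results of these data known. All 10 members are named, with the 2 genes of smallest p in CLP versus sham and each called gene of every list, and the genes correlating most closely with a member; 1 gene that this rule names is not reported here. Alternatives (DESeq2 1.42.0, limma 3.58.1 voom, other scalings, filters and libraries) are given in the closing section. Labels give each mouse as 1 sample; intervals on read counts cover counting error only. Same-numbered mice of different groups deviated together in 1 of 12 pairs at a correlation over 0.1 (range -0.46 to 0.55), so the numbers were not taken as pairs.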

Additional observations from a re-analysis of the deposited data

Results flagged for a closer look

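Over 27 groups of 4 libraries, 2 held a library whose gap to its nearest neighbour was above Dixon's 95% critical value as a share of the group's range; chance alone gives about 1 such group in 20. Vcam1 measured 4.22 CPM in CLP replicate 4, against 7.45 to 8.09 CPM in the other CLP livers, a gap of 0.872 of the range. Selp measured 6.72 CPM in CLP+DCA replicate 3, against 1.28 to 1.40 CPM in the others, a gap of 0.946 of the range.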

How the results depend on the processing

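The count of genes called depended on the settings. In CLP versus sham, 1 of 9 was called; edgeR on 8 libraries gave 4, DESeq2 on 12 libraries 4, DESeq2 on 8 libraries 5, voom with quality weights 4, and library size alone, no low-count filter or the replicate block 0. Without 1 library the count ran from 0 to 4: 4 without CLP+DCA replicate 3, 3 without CLP replicate 3 or CLP+DCA replicate 4, and 0 without each of the other 9, where Stab1 lost its call at a similar fold change. DESeq2 on 11 libraries, without CLP+DCA replicate 3 and chosen after seeing the data, gave 5. In CLP+DCA versus CLP, where none was called, it gave 4, against 1813 of 14496 genes, and voom gave 2, against 1287 of 13190. Leaving out 1 library in that comparison gave 0 to 1, against 0 to 616 of all genes. In CLP+DCA versus sham voom gave 2, against 473 of 13190 genes. Over all genes, calls in CLP versus sham went from 367 to 2387 (edgeR, 8 libraries), 1894 (DESeq2, 12 libraries), 3428 (DESeq2, 8 libraries), 3747 (DESeq2, 11 libraries), 3417 (voom), 209 (library size alone), 122 (no filter), 46 (replicate block) and, without 1 library, 10 to 3157. The replicate block was not taken as pairing.

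Log2 fold changes near 0 changed sign. In CLP versus sham, library size alone, which moved the median of all genes to -0.15, gave -0.057 for Vcam1, -0.099 for Stab2 and -0.0013 for Fcgr2b; Clec4g was 0.063 with voom and 0.00094 with TMM without the 50 most abundant genes. Leaving out 1 library gave -0.053 to 0.33 for Vcam1 and -0.14 to 0.15 for Clec4g. In CLP+DCA versus CLP, Selp was -0.77 (DESeq2, 11 libraries), -0.59 (voom), -0.047 (replicate block) and -0.78 to 0.47 without 1 library; Stab2 was 0.034 (DESeq2, 11 libraries), 0.0094 (library size alone, median of all genes 0.12), 0.13 (voom) and -0.30 to 0.038 without 1 library; Clec4g ran from -0.16 to 0.29 and Fcgr2b from -0.010 to 0.14 without 1 library. In CLP+DCA versus sham, Selp was -0.46 (DESeq2, 11 libraries), -0.42 (voom) and -0.46 to 0.79 without 1 library; Stab2 was 0.099, 0.24 and -0.23 to 0.10 in the same settings; Clec4g was -0.025 (library size alone), -0.017 (replicate block) and -0.17 to 0.27 without 1 library. The cause of these changes was not tested. Of all values recomputed for single genes, 570 kept direction and call, 30 gained a call, 12 lost one (Stab1) and 36 changed sign. At 0 to 9 reads per library in sham and CLP, depth limits Sele.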
